A study of Mus musculus with 10 samples.

Results

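The interferon regulatory factors are the transcription factors that switch on interferon genes and the genes that interferons induce, and some of them direct the development of blood cells. The members were Irf1, Irf2, Irf3, Irf4, Irf5, Irf7, Irf8 and Irf9, taken as every probe set whose platform gene symbol is one of these names, which gave 14 of 45037 probe sets and 8 of 18193 genes. They were measured in sorted mouse acute lymphoblastic leukaemia cells with 1 array for each of 10 animals. The leukaemia, named NSTY ALL in the labels, has a C57BL/6 background, carries the human bcr/abl fusion oncogene of the p210 form and lacks the Ink4a/Arf locus. In the allogeneic group, 5 animals received C3.SW marrow and spleen cells together with the leukaemia, and in the syngeneic group 5 animals received C57BL/6 marrow and spleen cells with it. All recipients were C57BL/6 mice prepared by total body irradiation and 5-fluoruracil, as the labels spell it. In both groups the leukaemia was passed through 3 serial transplants, 2 to 3 weeks each, before cells were sorted on a green fluorescent protein marker and lysed. The labels do not say whether animals of a group shared an earlier recipient, so p-values measure only the spread between these 10 arrays. All animals carried 1 leukaemia line, and host or donor cells that escaped the sort would add their own RNA.

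Each factor of this family binds DNA through a tryptophan-rich domain that recognises repeats of the letters GAAA. Interferon-gamma switches on Irf1 through gamma-activated sites in DNA. Type I interferons assemble the complex ISGF3, in which Irf9 is a subunit and which binds interferon-stimulated response elements, and Irf7 is one of its targets. Irf3 and Irf7 are latent until sensors of nucleic acids trigger their phosphorylation, after which they turn on type I interferon genes. Irf4 and Irf8 are held at high level in B-lineage and myeloid cells by lineage programmes, and together they guide the step from pre-B to immature B cell. In this account Irf1, Irf7 and Irf9 are called the induced members, and Irf4 and Irf8 the lineage members.

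The promoter windows of the induced members and of the lineage member Irf8 are shown as examples, and the matches in all members are given after them. Each window is taken from RefSeq in build GRCm38.p6 and runs from 250 bases before a start site to 50 bases after it, 5′ to 3′ on the gene's strand. Capitals mark matches to the gamma-activated site TTCNNNGAA, to the response element core or to the ETS-IRF composite core, searched on both strands. The response element core is GAAA, any 2 bases and GAAA again, and the composite core is GGAA, any 2 bases and GAAA. The Irf1 window is chr11:53769764-53770063 on the plus strand, at the start of the annotated gene.
Irf1: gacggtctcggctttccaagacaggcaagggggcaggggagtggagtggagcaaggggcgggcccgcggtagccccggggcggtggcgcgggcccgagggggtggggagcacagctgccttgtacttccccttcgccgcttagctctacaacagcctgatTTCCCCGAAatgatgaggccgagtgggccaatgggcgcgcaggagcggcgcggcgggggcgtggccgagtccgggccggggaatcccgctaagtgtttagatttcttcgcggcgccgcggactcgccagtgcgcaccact
The Irf7 window is chr7:141266375-141266674 on the minus strand, and its start site lies inside the annotated gene.
Irf7: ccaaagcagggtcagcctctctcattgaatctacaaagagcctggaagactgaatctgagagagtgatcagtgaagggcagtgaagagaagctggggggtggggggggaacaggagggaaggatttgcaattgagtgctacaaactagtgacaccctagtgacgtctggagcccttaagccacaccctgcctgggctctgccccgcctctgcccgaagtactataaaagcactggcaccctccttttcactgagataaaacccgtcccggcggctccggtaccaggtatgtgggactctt
The Irf9 window is chr14:55603735-55604034 on the plus strand, at the start of the annotated gene.
Irf9: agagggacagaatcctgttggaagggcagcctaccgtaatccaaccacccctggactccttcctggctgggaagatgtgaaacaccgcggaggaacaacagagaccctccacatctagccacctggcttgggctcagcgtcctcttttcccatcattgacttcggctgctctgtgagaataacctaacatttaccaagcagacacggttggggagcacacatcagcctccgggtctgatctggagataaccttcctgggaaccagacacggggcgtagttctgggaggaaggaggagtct
The Irf8 window is chr8:120736108-120736407 on the plus strand, at the start of the annotated gene.
Irf8: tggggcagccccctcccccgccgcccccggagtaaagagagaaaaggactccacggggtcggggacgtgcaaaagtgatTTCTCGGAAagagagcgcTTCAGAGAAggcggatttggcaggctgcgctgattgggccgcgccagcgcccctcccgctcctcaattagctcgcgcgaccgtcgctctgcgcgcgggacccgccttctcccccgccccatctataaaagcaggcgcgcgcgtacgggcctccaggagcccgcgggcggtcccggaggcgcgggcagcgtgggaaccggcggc

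The Irf1 window held 1 gamma-activated site match, beginning at position -90 relative to the start site. The Irf8 window held 2 such matches, and the windows of Irf7 and Irf9 held no match to any of the 3 motifs. Of the other members, Irf2 held 1 match to each motif, and its response element and composite matches overlap. The windows of Irf3, Irf4 and Irf5 held none, and neither did the further windows that RefSeq gives for Irf1, Irf8 and Irf9. A gamma-activated site match was present in 8.30% of 32851 windows of this length, a response element match in 3.44% and a composite match in 2.72%. A match is a description of letters, and its absence says only that these letters are not in this window. Irf3 and Irf7 lie on chromosome 7, Irf2 and Irf8 on chromosome 8, and Irf1, Irf4, Irf5 and Irf9 on chromosomes 11, 13, 6 and 14.

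Values below are log2 intensities after quantile normalization between arrays, with the probe set of highest mean standing for each gene. Differences are allogeneic minus syngeneic and come from limma fitted on all 18193 genes, and the Benjamini-Hochberg adjusted p of a called gene is under 0.05. Of the 8 members, Irf1 was called as higher in the allogeneic group, none was called as lower, and 7 were not called. Over all genes 0.506% were called as higher and 0.0770% as lower. The median difference of the 8 members was 0.11, against 0.011 for all genes. By the unadjusted p, 4 members were under 0.05, namely Irf1, Irf5, Irf7 and Irf9, against 3070 of all 18193 genes. Each array has a background limit, the 95th percentile of its 27 unspiked bacterial control probe sets, which lay between 4.50 and 5.09 on allogeneic and between 4.70 and 5.32 on syngeneic arrays. Of the 8 members, 7 exceeded it on all 10 arrays, Irf7 being the exception. The limit was exceeded by 11984 to 13094 genes on allogeneic and by 11224 to 12544 genes on syngeneic arrays. Precision is limited by the number of arrays, and in sorted bulk RNA fewer cells of a type and less RNA per cell cannot be told apart.

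Irf1, an activator of antigen presentation genes, was higher in every allogeneic animal. Irf1 stood at 12.20, 11.84, 11.62, 11.82 and 11.94 in allogeneic animals 1 to 5, against 9.83, 10.26, 10.28, 10.35 and 10.16 in syngeneic animals 1 to 5. The lowest allogeneic animal was therefore above the highest syngeneic one by more than the range within either group. As deposited, its intensities ran from 3011 to 4395 in allogeneic animals and from 906 to 1339 in syngeneic animals. Irf1 averaged 11.88 ± 0.21 in allogeneic and 10.17 ± 0.20 in syngeneic animals (SD, n = 5 each). It rose by 1.71 on the log2 scale (SE 0.14, 95% interval 1.39 to 2.03), a 3.27-fold difference, with a limma adjusted p of 0.000515. Leaving out any 1 array kept the difference between 1.62 and 1.77 and the adjusted p at or below 0.00359.

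Irf7, the amplifier of type I interferon production, was near background in some syngeneic animals. Irf7 stood at 6.64, 6.89, 7.22, 6.58 and 7.47 in allogeneic animals 1 to 5, against 4.86, 5.91, 6.49, 4.96 and 5.64 in syngeneic animals 1 to 5. It exceeded the background limit on 5 of 5 allogeneic arrays and on 3 of 5 syngeneic arrays, syngeneic animals 1 and 4 being below. The groups did not overlap, but syngeneic animal 3 was close to the lowest allogeneic value, that of animal 4. Irf7 averaged 6.96 ± 0.38 in allogeneic and 5.57 ± 0.67 in syngeneic animals (SD, n = 5 each). The difference of 1.39 (SE 0.32, 95% interval 0.67 to 2.10) did not pass the test across all genes (limma adjusted p = 0.0923). With any 1 array left out the adjusted p lay between 0.0567 and 0.200.

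Irf9, the DNA-binding subunit of ISGF3, behaved much like Irf7 but from a level well above background. Irf9 stood at 9.67, 10.33, 9.71, 9.998 and 9.80 in allogeneic animals 1 to 5, against 8.45, 8.99, 9.58, 8.54 and 8.98 in syngeneic animals 1 to 5. Again no allogeneic animal was below a syngeneic one, and syngeneic animal 3 was again the highest of its group. Irf9 averaged 9.90 ± 0.27 in allogeneic and 8.91 ± 0.45 in syngeneic animals (SD, n = 5 each). The difference of 0.99 (SE 0.23, 95% interval 0.49 to 1.498) did not pass (limma adjusted p = 0.0893). Without syngeneic animal 3 it was 1.16 with an adjusted p of 0.0457, the only call among 10 omissions of 1 array. With all arrays kept, Irf9 was also called under some settings of filtering and fit, with limma adjusted p from 0.0340 to 0.0482. It was called in 5 of 21 alternatives, so the call depended on this array and on the setting.

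The order of syngeneic animals differed among the induced members. For Irf7 and Irf9 alike the order from highest to lowest was animal 3, 2, 5, 4 and 1. For Irf1, syngeneic animal 4 was the highest and animal 3 followed. In the allogeneic group the highest animal was number 1 for Irf1, number 5 for Irf7 and number 2 for Irf9.

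**Figure D1:**
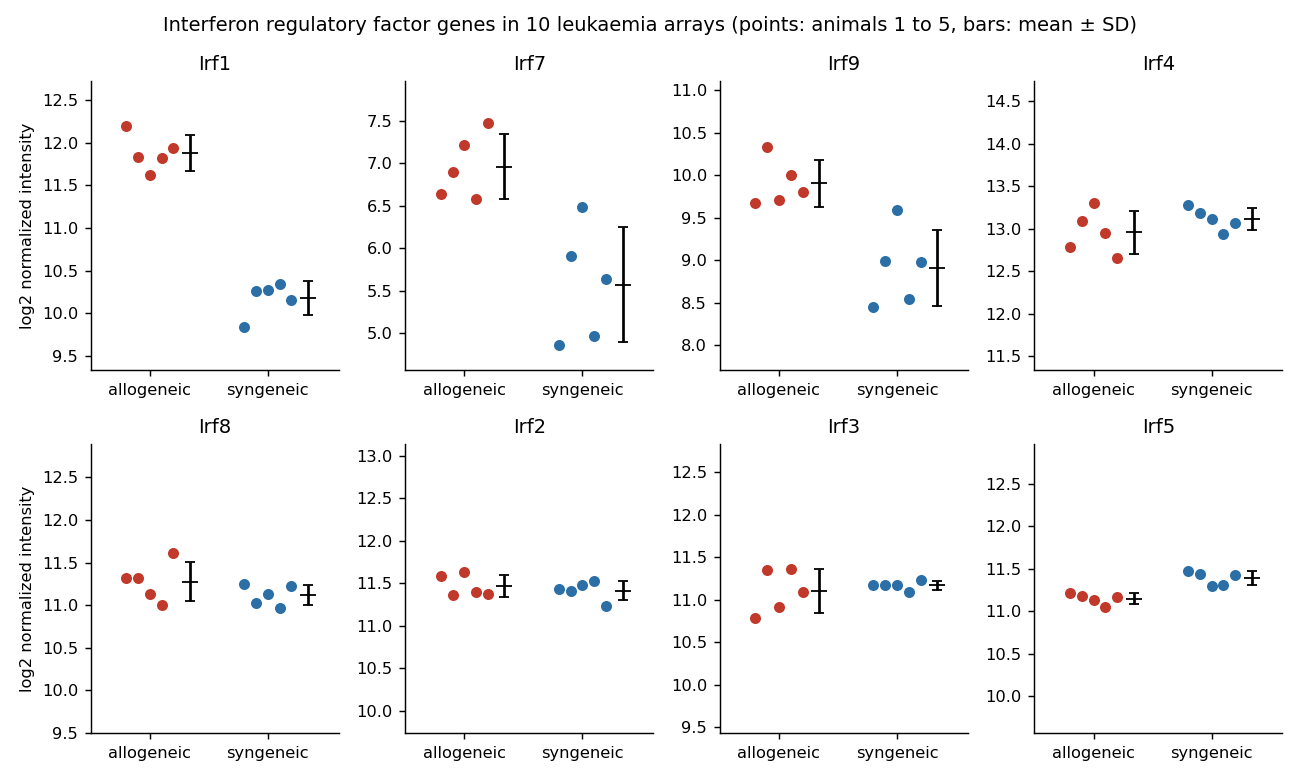
Log2 normalized intensity of the 8 members in each animal, with allogeneic animals in red left of syngeneic animals in blue, points in the order of animals 1 to 5, and black bars for the mean ± SD (n = 5 each). Every panel spans the same height on the log2 scale, and the Irf1 groups, at 11.62 to 12.20 and 9.83 to 10.35, stand furthest apart.

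Irf4, which drives the exit from the pre-B stage and later plasma cell formation, gave no call. Irf4 stood at 12.79, 13.09, 13.31, 12.95 and 12.65 in allogeneic animals 1 to 5, against 13.28, 13.18, 13.11, 12.93 and 13.07 in syngeneic animals 1 to 5. The groups overlapped, with the highest and the lowest value both in allogeneic animals. Irf4 averaged 12.96 ± 0.26 in allogeneic and 13.12 ± 0.13 in syngeneic animals (SD, n = 5 each). The difference was -0.16 (SE 0.14, limma adjusted p = 0.609), and its 95% interval ran from -0.47 to 0.16.

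Irf8, a factor of B-cell, dendritic cell and macrophage development, gave no call either. Irf8 stood at 11.31, 11.32, 11.13, 11.0007 and 11.61 in allogeneic animals 1 to 5, against 11.24, 11.03, 11.13, 10.96 and 11.22 in syngeneic animals 1 to 5. Allogeneic animals 1, 2 and 5 lay above every syngeneic animal, and allogeneic animals 3 and 4 lay within the syngeneic range. Irf8 averaged 11.28 ± 0.23 in allogeneic and 11.12 ± 0.12 in syngeneic animals (SD, n = 5 each). The difference was 0.16 (SE 0.13, limma adjusted p = 0.577), with a 95% interval of -0.14 to 0.46. For the probe sets that stand for the genes, the intervals of Irf4 and Irf8 both stop short of the lower bounds of Irf1, Irf7 and Irf9, which are 1.39, 0.67 and 0.49.

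To set induced against lineage members, each gene was centred on its syngeneic mean and the genes of a class were averaged within an array. The induced class stood at 1.28, 1.47, 1.30, 1.25 and 1.52 in allogeneic animals 1 to 5, against -0.50, 0.17, 0.56, -0.27 and 0.039 in syngeneic animals 1 to 5. The lineage class stood between -0.14 and 0.10 in allogeneic animals and between -0.17 and 0.15 in syngeneic animals. The groups overlapped in the lineage average and did not overlap in the induced average. Irf4 and Irf8 differed in opposite directions, by -0.16 and 0.16, and partly cancel in their average. In allogeneic animal 5, for example, Irf4 was at 12.65 against a syngeneic mean of 13.12 and Irf8 at 11.61 against a syngeneic mean of 11.12, yet the average deviation was 0.016. The induced minus lineage value averaged 1.36 ± 0.11 in allogeneic and, by construction, 0 in syngeneic animals, whose SD was 0.44 (n = 5 each). Its lowest allogeneic value was 1.19 and its highest syngeneic value 0.56. The classes were named with results of these data known, so this contrast is a description and was not tested.

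Pair by pair, the contrast was widest for Irf1. Of the 6 pairs of 1 induced and 1 lineage member, 3 had groups without overlap, namely Irf1 with Irf4, Irf1 with Irf8, and Irf7 with Irf4. Irf1 minus Irf4 ran from 1.25 to 2.35 in allogeneic animals, against -0.51 to 0.35 in syngeneic animals. Irf9 minus Irf8 was the narrowest, with 0.40 to 1.22 in allogeneic animals and -0.59 to 0.66 in syngeneic animals. The overlap in the pairs of Irf9, and in Irf7 with Irf8, came with syngeneic animal 3, whose values were the upper ends of the syngeneic ranges.

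**Figure D2:**
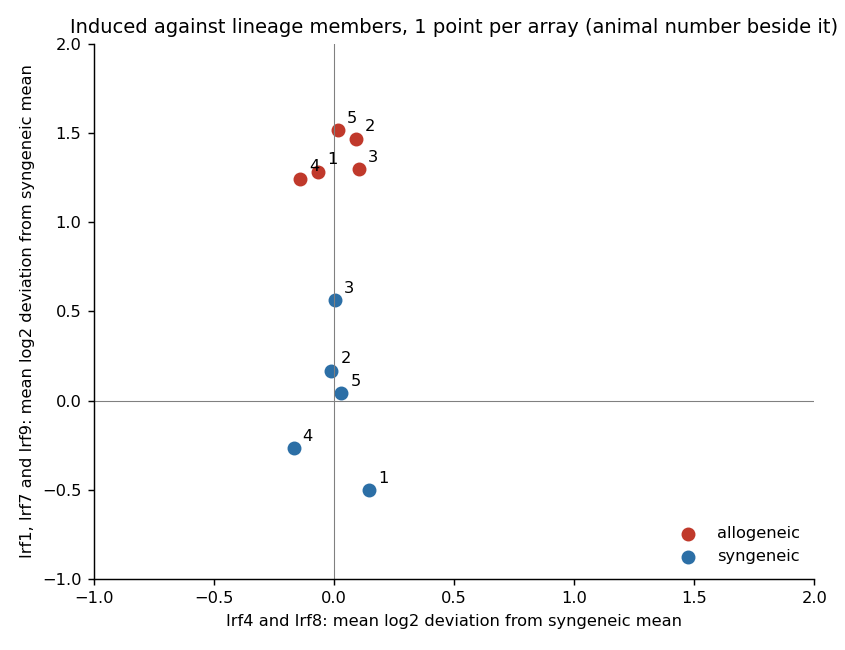
Mean log2 deviation from the syngeneic mean of Irf1, Irf7 and Irf9 (vertical axis) against that of Irf4 and Irf8 (horizontal axis), with 1 point per array and the animal number beside it. Both axes span the same range, so the spread of 1.25 to 1.52 in allogeneic and -0.50 to 0.56 in syngeneic animals on the vertical axis can be set against a spread within -0.17 and 0.15 on the horizontal axis, where Irf4 and Irf8 partly cancel.

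The remaining members, Irf2, Irf3 and Irf5, were not called. Irf2, which competes with Irf1 for the same DNA sites, stood between 11.36 and 11.63 in allogeneic animals and between 11.23 and 11.52 in syngeneic animals. Its difference was 0.053 (SE 0.11, 95% interval -0.19 to 0.29, limma adjusted p = 0.842). Irf3, the latent factor of the early interferon response, stood at 10.78, 11.35, 10.91, 11.35 and 11.09 in allogeneic animals 1 to 5. In syngeneic animals 1 to 5 Irf3 stood at 11.17, 11.17, 11.17, 11.09 and 11.23. The syngeneic values were tightly grouped (SD 0.050), whereas allogeneic animals spread on both sides of them (SD 0.26). Its difference was -0.070 (SE 0.13, 95% interval -0.37 to 0.23, limma adjusted p = 0.833).

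Irf5, which relays signals of Toll-like receptors in B cells and myeloid cells, was the one member whose allogeneic values all lay below the syngeneic ones. Irf5 stood at 11.21, 11.18, 11.14, 11.05 and 11.17 in allogeneic animals 1 to 5, against 11.47, 11.44, 11.30, 11.31 and 11.42 in syngeneic animals 1 to 5. Its difference was -0.24 (SE 0.092, 95% interval -0.45 to -0.034) and did not pass (limma adjusted p = 0.233). Irf1, Irf7, Irf9 and Irf5 were the 4 of 8 members whose groups did not overlap, 3 above and 1 below. Among all genes 4.83% had groups without overlap, 2.94% above and 1.90% below. Overlap and difference are read from the same values, so neither is separate support for the other.

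The alternatives changed normalization, probe set choice, filtering or fit, or left out arrays. Over all of them the limma adjusted p of Irf7 lay between 0.0419 and 0.200. That of Irf9 lay between 0.0340 and 0.201, so both stand close to the threshold. That of Irf8 stayed at or above 0.173.

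**Figure D3:**
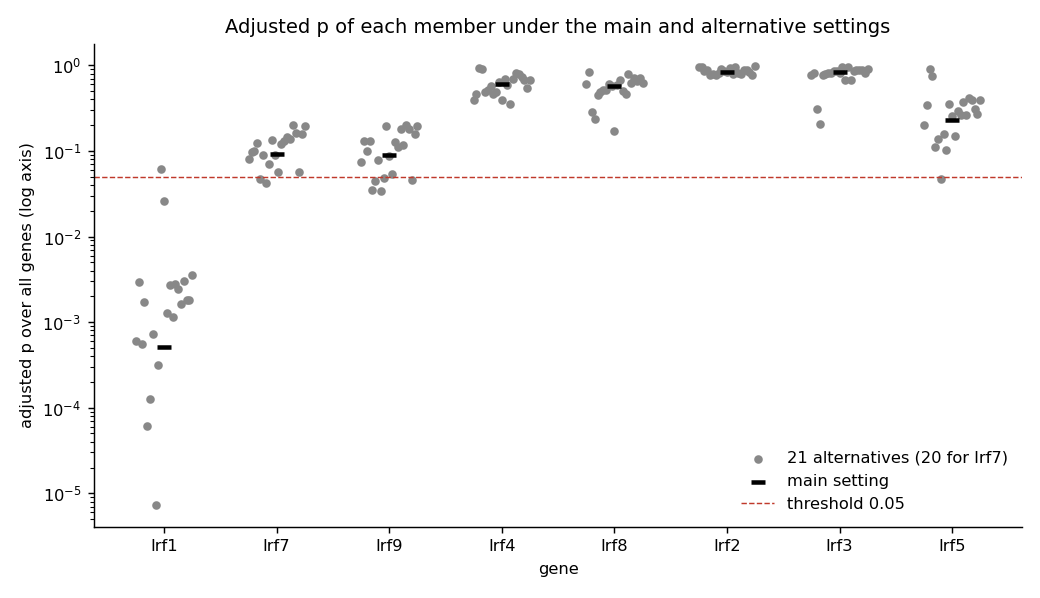
Adjusted p over all genes (log axis) of each member in the main setting (black dash) and under the alternative settings (grey points), with the threshold of 0.05 as a dashed line. Irf1 lies under the line in all but 1 alternative, Irf7 and Irf9 have points on both sides of it, and Irf2, Irf3, Irf4 and Irf8 lie above it throughout.

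The 4 members with several probe sets were examined probe set by probe set, with limma fitted on all 45037 probe sets that are not controls. Of the 14 member probe sets 1 was called, that of Irf1 (adjusted p = 0.00141), against 0.411% of all probe sets. The groups of 4 member probe sets did not overlap, against 4.74% of all probe sets. Members with a single probe set were Irf1, Irf2, Irf7 and Irf9. For Irf5 the second probe set ran the other way from the first. That second Irf5 probe set stood between 9.84 and 10.53 in allogeneic animals and between 9.63 and 10.25 in syngeneic animals, a difference of 0.15 (SE 0.18, limma adjusted p = 0.720). The lower Irf5 value therefore rests on 1 of its 2 probe sets.

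For Irf8 both probe sets pointed the same way. The second Irf8 probe set stood at 9.61, 9.75, 10.03, 9.34 and 10.07 in allogeneic animals 1 to 5, against 9.41, 9.16, 9.25, 8.91 and 9.34 in syngeneic animals 1 to 5. Only allogeneic animal 4 fell inside the syngeneic range. The difference was 0.55 (SE 0.17, 95% interval 0.16 to 0.94, limma adjusted p = 0.172), against 0.16 for the probe set that represents the gene. Within an array, the second minus the first probe set lay between -1.704 and -1.10 in allogeneic animals and between -2.05 and -1.83 in syngeneic animals, without overlap. The 2 Irf8 probe sets thus changed unequally, a difference that was not tested.

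For Irf4 the second probe set differed by 0.073 (SE 0.23, limma adjusted p = 0.903), the opposite sign to the first. Irf3 had 4 probe sets, all with a negative difference. The brightest and the next differed by -0.070 and -0.061 (limma adjusted p = 0.847 and 0.924), and the dimmest by -0.43 (limma adjusted p = 0.265). The Irf3 probe set with the largest difference is the only member probe set without a sequence record in the platform annotation. It stood at 5.34, 7.13, 5.25, 6.84 and 6.09 in allogeneic animals 1 to 5, against 7.47, 7.62, 7.30, 6.70 and 7.67 in syngeneic animals 1 to 5. Its difference was -1.22 (SE 0.39, limma adjusted p = 0.170), and allogeneic animals 1 and 3 were the lowest. These 2 animals were also the lowest for the probe set that represents Irf3 and for a further Irf3 probe set. The lower quartile of all deposited intensities was between 18.7 and 19.5 for allogeneic animals 1, 3 and 4 and between 13.8 and 14.4 for the other 7 animals, and the part of this in the Irf3 values was not tested.

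**Figure D4:**
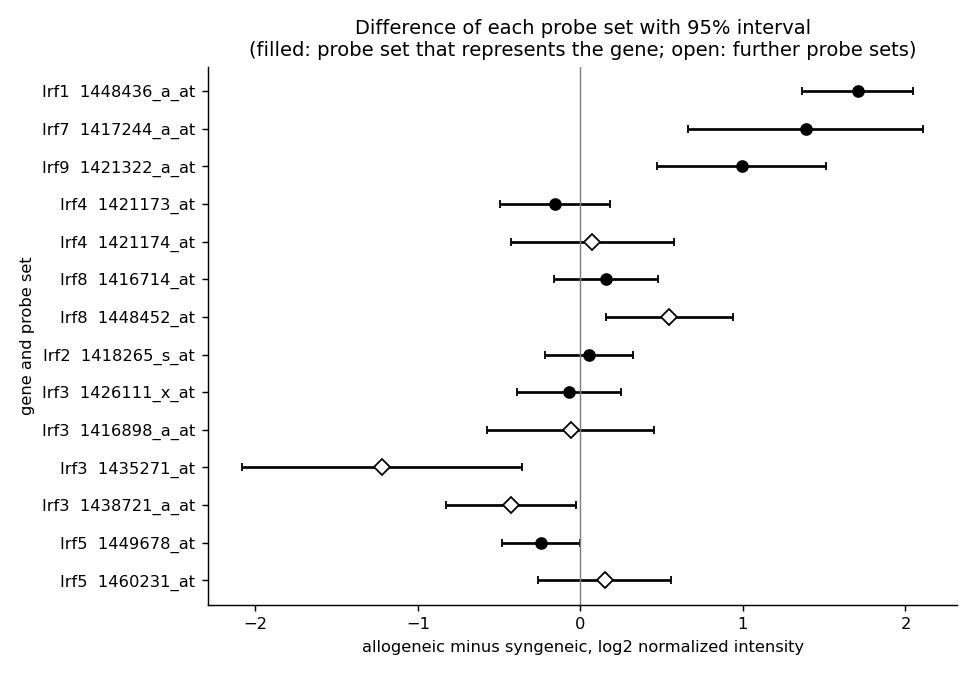
Difference between allogeneic and syngeneic animals in log2 normalized intensity for the 14 member probe sets, with 95% intervals from limma fitted on all probe sets (n = 5 each). Filled circles are the probe sets that represent a gene and open diamonds are further probe sets, and the Irf5 pair lies on both sides of 0, at -0.24 and 0.15.

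Genes whose pattern over the 10 arrays was most like that of a member were ranked by root mean square difference after centring on the syngeneic mean. Between 10454 and 10455 genes above background on all arrays were searched, and the ranking is a description. Irf1 was followed most closely by Tapbpl, a tapasin relative that edits class I peptides, at a root mean square difference of 0.19 on the log2 scale. AW112010 and Ica1 came next at 0.21 and 0.23. For Irf7 the closest were Irgm1, an interferon-inducible GTPase gene, at 0.40, Ica1 at 0.41 and Irf9 at 0.46. For Irf9 they were Irak1bp1, Lrrc36 and Alox5ap, the gene of the activator of leukotriene synthesis, at 0.24, 0.24 and 0.25. For Irf4 they were Madd, Itsn1 and D030056L22Rik at 0.074, 0.077 and 0.080. For Irf8 they were Ndufv1, a subunit gene of respiratory complex I, Abhd16a and Dctn2 at 0.087, 0.088 and 0.094.

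Interferons and their receptors were measured around the members. Among all genes, 3070 of 18193 had an unadjusted p under 0.05, the share to set beside the counts that follow. Of 10 listed interferon ligand genes 7 were measured, 0 were called by limma, and 1 had an unadjusted p under 0.05. Ifna2, Ifna4, Ifnb1 and Ifng were below the background limit on all 10 arrays. Ifna1 stood between 6.03 and 6.40 in allogeneic animals and between 5.67 and 5.97 in syngeneic animals, a difference of 0.39 (SE 0.12, limma adjusted p = 0.153). Ifna11 and Ifna5 exceeded the limit on 1 and 4 of 10 arrays. None of the 6 receptor genes was called by limma and 1 had an unadjusted p under 0.05, Ifnar2, a chain of the type I interferon receptor. Ifnar2 differed by 0.71 (SE 0.22, limma adjusted p = 0.168), with 1 of its 3 probe sets of opposite sign. Ifnar1 and Il10rb differed by 0.34 and 0.35 (limma adjusted p = 0.311 and 0.478), and each had a second probe set of opposite sign.

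Signal transducers were not called either. Of the 5 measured JAK kinase and STAT genes none was called by limma and 1, Jak1, had an unadjusted p under 0.05 (-0.27, SE 0.11, adjusted p = 0.266). Tyk2 and Stat3 differed by 0.22 and -0.19. Of the 6 inhibitors of interferon signalling none was called by limma, and 3 had an unadjusted p under 0.05. Socs3, a feedback inhibitor of cytokine receptors, stood between 9.08 and 10.33 in allogeneic animals and between 10.59 and 11.75 in syngeneic animals (-1.27, SE 0.29, adjusted p = 0.0893). Usp18, which blocks the type I interferon receptor, differed by 1.92 (SE 0.58, adjusted p = 0.159) with overlapping groups, and Socs1, an inhibitor of JAK kinases, by 0.78 (SE 0.29, adjusted p = 0.226).

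Of 16 measured sensors, adaptors and kinases upstream of Irf3 and Irf7, 1 was called as higher and 15 were not called. The called gene was Ifih1, a sensor of double-stranded RNA, which stood between 7.20 and 7.87 in allogeneic animals and between 5.74 and 6.29 in syngeneic animals. Tlr3, Ddx58 and Cgas, which sense double-stranded RNA, viral RNA ends and cytosolic DNA, differed by 0.94, 0.49 and 0.95 (limma adjusted p = 0.0854, 0.197 and 0.219). The list's median was 0.22. Of 12 measured DNA-binding partners and cofactors 1 was called, Batf2, a partner of Irf1 in macrophages. Batf2 stood between 6.31 and 7.95 in allogeneic animals and was below the background limit on all 5 syngeneic arrays. It was at least 5.19-fold higher in the allogeneic group, with the limit standing in for lower syngeneic values (limma adjusted p = 0.00236). Ikzf1, the Ikaros gene, and Irf2bp2, a corepressor that binds Irf2, differed by -0.27 and -0.26 (limma adjusted p = 0.251 and 0.453), and Batf3 was below the limit on every array.

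Target genes were listed for Irf1, for ISGF3 and for Irf4 with Irf8. The lists were chosen with earlier results of these data known, so their counts and medians are a description. Of 14 measured Irf1 target genes, which include genes of antigen processing, 6 were called as higher, 0 as lower and 8 were not called, with a median difference of 0.79 against 0.011 for all genes. With 1 array left out the number called lay between 3 and 7, and it was 3 without allogeneic animal 2 or 3 or without any 1 of the 5 syngeneic animals. It was also 3 with arrays shifted to one median or with the probe set of largest variance, and 1 with the animal number as a block. Il12rb1, a chain of the interleukin-12 receptor, stood between 9.75 and 10.33 in allogeneic animals and between 7.64 and 8.26 in syngeneic animals, and rose by 2.10 (SE 0.16, limma adjusted p = 0.000302). Casp1, the inflammasome protease gene, stood between 9.52 and 10.11 in allogeneic animals and between 8.75 and 9.06 in syngeneic animals, and rose by 0.90 (SE 0.15, limma adjusted p = 0.0309). Gbp2, Psmb9 and Tap1 were called as well, with 2 of 4 Tap1 probe sets of opposite sign. Il15, the sixth, exceeded the background limit on 1 of 10 arrays, so its size has no bound. Psmb10, Psmb8 and Socs1 came next without a call, at 0.79, 0.26 and 0.78 (limma adjusted p = 0.0660, 0.216 and 0.226).

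Of 16 measured ISGF3 target genes 3 were called as higher, Oas3, Bst2 and Oasl2, and 13 were not called. All 16 had a positive difference, against 9319 of 18193 among all genes, and their median was 0.63. The number called was 2 to 3 with 1 array left out, 1 with the lower 50% of genes left out and 0 with the animal number as a block. Mx1, a dynamin-like antiviral GTPase gene, stood between 6.77 and 7.95 in allogeneic animals and between 6.30 and 6.62 in syngeneic animals, a difference of 0.99 (SE 0.25, limma adjusted p = 0.115). Oas1a differed by 0.98 (adjusted p = 0.183). Of 12 measured Irf4 and Irf8 target genes of B-lineage cells none was called by limma, and the median was 0.015. By the unadjusted p 2 were under 0.05, against 3070 of 18193 among all genes. Those 2 were Ikzf1 and Pax5, the B-lineage commitment factor, which differed by -1.21 (SE 0.52, limma adjusted p = 0.281) and was near background. Rag1, a recombinase subunit gene, differed by 0.46 (limma adjusted p = 0.568). Of the measured genes, Usp18, Socs1, Ikzf1, Stat2 and Ikzf3 each stand in 2 of these lists.

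**Figure D5:**
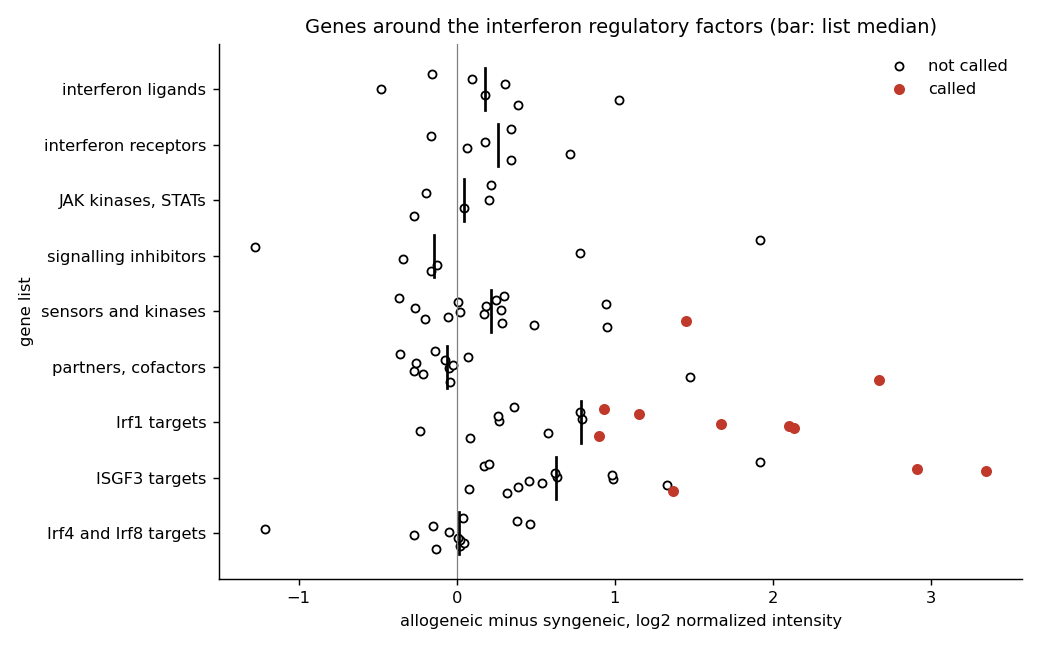
Difference between allogeneic and syngeneic animals in log2 normalized intensity for genes of 9 lists around the interferon regulatory factors, with 1 circle per measured gene, filled red where limma called it, and a black bar at the list median. The medians of Irf1 and ISGF3 targets lie at 0.79 and 0.63 and that of Irf4 and Irf8 targets at 0.015. The lists were chosen with earlier results of these data known.

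Markers of cell types that express some members at high level were measured beside them. Among all 18193 genes, 9319 had a positive difference and 3070 an unadjusted p under 0.05, the shares to set beside the marker counts. B-lymphoid progenitor markers averaged between 10.90 and 11.26 on the log2 scale in allogeneic animals and between 11.08 and 11.29 in syngeneic animals, with Vpreb1, a surrogate light chain gene, at 13.68 in allogeneic and 13.64 in syngeneic animals. Of the 9 measured, 8 had a positive difference, and 1, Pax5, had an unadjusted p under 0.05 with a negative difference. Plasmacytoid dendritic cells are rich in Irf7 and Irf8, and their 8 markers averaged 7.53 to 8.21 in allogeneic animals and 7.45 to 7.71 in syngeneic animals. Of these 8, 4 had a positive difference and 4 an unadjusted p under 0.05, and only Bst2 was called, which is also an ISGF3 target. Ly6d, Ccr9 and Pacsin1 differed by 1.72, 0.89 and -1.30 (limma adjusted p = 0.118, 0.228 and 0.161). Tcf4, the marker of highest signal, differed by -0.28. Conventional dendritic cell markers averaged 4.78 to 5.46 in allogeneic animals and 4.65 to 4.88 in syngeneic animals, with 5 of 7 positive and Itgax and Cd209a below background on all arrays. By the unadjusted p 3 of these were under 0.05, Zbtb46, Clec10a and Cd209a. Zbtb46 and Clec10a, which was near background, differed by 0.58 and -0.77 (limma adjusted p = 0.126 and 0.248). Ccr7, the brightest conventional dendritic cell marker, averaged 9.61 in allogeneic and 9.14 in syngeneic animals. Macrophage and monocyte markers averaged 5.77 to 7.59 in allogeneic animals and 6.56 to 7.12 in syngeneic animals, with 6 of 11 positive and Itgam below background on all arrays. Fcgr3, the brightest of them, averaged 12.46 in allogeneic and 12.25 in syngeneic animals. By the unadjusted p 1 macrophage and monocyte marker was under 0.05, Mpeg1, at 12.63 in allogeneic and 11.95 in syngeneic animals. Mpeg1 differed by 0.68 (SE 0.22, limma adjusted p = 0.182) with overlapping groups. Plasma cell markers, relevant to Irf4, averaged 8.65 to 8.97 in allogeneic and 8.83 to 9.10 in syngeneic animals, with 2 of 7 positive and Mzb1 the brightest at 13.10 in allogeneic and 12.94 in syngeneic animals. By the unadjusted p 1 plasma cell marker was under 0.05, Jchain, which differed by -0.83 (SE 0.26, limma adjusted p = 0.167). NK cell markers averaged 5.75 to 6.44 in allogeneic and 5.14 to 6.06 in syngeneic animals, with 5 of 7 positive and Ncr1, Klrk1 and Eomes below background throughout. Gzma, the brightest NK cell marker and a granzyme gene of NK and T cells, stood between 9.06 and 10.40 in allogeneic animals and between 8.40 and 9.22 in syngeneic animals, a difference of 1.06 (SE 0.25, limma adjusted p = 0.0995). The other NK markers above background on all arrays were Prf1, Klrd1 and Klrb1b. They differed by -0.20, -0.30 and 0.15 (limma adjusted p = 0.468, 0.745 and 0.873). By the unadjusted p 2 NK markers were under 0.05, Gzma and Klrk1. T cell, mature B cell and granulocyte lists had 5 of 9, 0 of 5 and 6 of 7 measured markers with a positive difference, and none was called by limma, with 2, 0 and 1 of them under an unadjusted p of 0.05. The 2 T cell markers were Lat and Tcra, which differed by -0.78 and 1.90 (limma adjusted p = 0.189 and 0.234). Tcra exceeded the background limit on 2 allogeneic and 0 syngeneic arrays. The granulocyte marker was Camp, which differed by 0.58 (limma adjusted p = 0.209). The brightest of each list were Lat, Cd22 and S100a8. Lat averaged 6.72 in allogeneic and 7.4998 in syngeneic animals, Cd22 averaged 12.01 in allogeneic and 12.06 in syngeneic animals, and S100a8 averaged 10.62 in allogeneic and 10.30 in syngeneic animals. The part of other cell types in the Irf1, Irf7 and Irf9 values was not tested.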

How the data were processed

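Biotinylated cDNA from total RNA of 10 sorted leukaemia samples was hybridised to Affymetrix arrays, 1 per animal. For each array the authors deposited a linear intensity of 45101 probe sets. The sources used here do not say how the authors summarised and scaled them. Distributions differed between arrays, so log2 values were quantile normalized. Probe sets were named through the platform annotation (34945 with 1 symbol, 932 with several, 9160 with none, 64 controls) and updated to GRCm38.p6 symbols by gene identifier. The probe set of highest mean represented a gene, which gave 18193 genes, with no filter on low values. Groups were compared with limma 3.58.1 (lmFit and eBayes) in R 4.3.3, with Benjamini-Hochberg adjustment over all genes or all probe sets, and the procedure was tested on simulated data. The background limit and the per-gene bound used the 95th percentile of 27 unspiked bacterial control probe sets. Genes named were the 8 members, list genes that were called or among the next 3 by p, the 3 closest patterns for 5 members and the brightest marker of each cell type list. Further markers were named after their values were seen. Members, classes and lists were chosen with earlier results of these data known. Alternatives covered normalization, probe set choice, low values, eBayes settings, array weights, the animal number as a block and leaving out arrays.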

Additional observations from a re-analysis of the deposited data

Results flagged for a closer look

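Each group of 5 animals was examined for a sample far from the others by Dixon's ratio of gap to range, over 142 groups, of which chance would mark about 1 in 20. None of the 28 groups of member probe sets was marked, and 8 groups of other named genes were. Syngeneic animal 3, the highest of its group for Irf7 and Irf9, stood high for Ddx58, at 9.23 against 8.49 to 8.63 in the other syngeneic animals, and for Tlr3, at 7.47 against 6.43 to 6.68. Syngeneic animal 4 stood low for Ifih1, at 5.74 against 6.22 to 6.29. Syngeneic animal 1 stood high for Cd22, at 12.51 against 11.85 to 12.03, and low for Mzb1, at 12.71 against 12.98 to 13.02. Allogeneic animal 3 stood low for Pax5, at 2.16 against 4.72 to 5.06 in the other allogeneic animals, where background is near 5. Allogeneic animal 5 stood low for Rag1, at 9.05 against 10.70 to 11.18, and high for Vpreb1, at 13.73 against 13.65 to 13.67.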

How the results depend on the processing

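Irf1 stayed higher under all 21 alternatives (1.62 to 1.77) and called under 20 of them. The exception was the replicate block, where its difference of 1.71 had an adjusted p of 0.0619, 0 members were called and 14 genes in the whole table. The animal numbers did not pair the arrays, since correlations of same-numbered deviations lay between -0.082 and 0.073 and 0 of 5 arrays matched best with their own number. Irf7 and Irf9 stayed higher under all alternatives that tested them, in which Irf7 was called in 2 of 20 and Irf9 in 5 of 21. Leaving out the lower 50% of genes removed Irf7, so it was not tested in that setting. Members called numbered 2 with the lower 50% of genes left out (269 genes in all), 3 with genes above background on fewer than 5 arrays left out (307), 2 with intensities floored at 16 (240), 3 with eBayes trend and robust (307) and 2 with array weights (720), against 1 (106) in the main setting. Irf5 was the second called member with the floor (adjusted p = 0.0466). With dim probe sets left out, 3 member probe sets were called. Leaving out 1 array gave 1 to 2 members and 55 to 636 genes, with 636 without allogeneic animal 1, 69 without allogeneic animal 4, and 57, 55 and 56 without syngeneic animals 1, 2 and 5. The probe set of largest variance gave 67 genes, and leaving out allogeneic animals 1, 3 and 4 together gave 658. The induced minus lineage value ran from 1.20 to 1.501 with 1 array left out and was 1.21 with the mean over probe sets and 1.05, its lowest, with the probe set of largest variance. Signs turned for differences near 0. Irf2 was -0.019 with arrays shifted to one median and -0.048 without allogeneic animals 1, 3 and 4. Irf3 was 0.040 with array weights, 0.054 without those 3 animals, and -0.13 to 0.010 with 1 array left out, positive without allogeneic animal 1. With the probe set of largest variance Irf4 was 0.073 and Irf5 0.15. The cause of these shifts was not tested, beyond the other probe set chosen in the last case. Under the 2 filters fewer genes were tested and standard errors changed too, for Irf9 from 0.227 to 0.214 and 0.218. The part of each in the calls was not tested.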
